A study of Mus musculus with 21 samples.

Results

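Macrophages grown from wild-type (WT) and Nur77 knockout (KO) marrow were compared for how strongly each gene responded to 4 h of lipopolysaccharide (LPS). The quantity is a difference of differences: the change from 0 h to 4 h in labelled-KO cells minus the change from 0 h to 4 h in WT cells, called the interaction below. Its terms are the group means of the 14 libraries at 0 h and 4 h of the 21 in the series. The other 7 libraries, taken at 18 h, are in no term of it but share the fit, and so enter its estimate of spread. A positive interaction means a higher response in labelled KO, a larger rise or a smaller fall.

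Marrow of male C57Bl6/J mice aged 6 to 12 weeks was cultured for 7 days with 15% L929-conditioned medium, which supplies the growth factor for macrophages, and the cells were lifted and seeded again. WT cells (4 libraries per time) and Nur77-KO cells (3 per time, numbered 2 to 4) were left untreated (0 h) or given 100 ng/ml LPS for 4 h or 18 h, and no further allele or agent is named. The genotype tag is cre for the labelled-KO libraries. The sources used here do not say whether the deletion is in all cells or conditional, nor whether a number stands for 1 animal, so p-values here reflect library-to-library spread only.

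Nur77, encoded by Nr4a1, is a nuclear receptor that binds DNA without a known natural ligand and is itself an immediate early gene. LPS is sensed by Toll-like receptor 4, which drives NF-kB and, through interferon beta, the interferon-stimulated genes, while negative feedback proteins limit both. Macrophages grown with colony-stimulating factor divide, and LPS is known to stop their cycle. A genotype can therefore alter the state before LPS, the response to it, or both. The interaction alone does not separate these, since on the log scale a difference at 0 h that is gone at 4 h also gives one. The differences at 0 h and at 4 h are therefore given beside it.

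Gene totals were 12301504 to 29650081 counts in the 14 libraries, in which CPM stands for counts scaled to a fixed library total with TMM factors. On log2 CPM the first component of variation carried 85.9% of the variance and split 0 h from 4 h. Defining macrophage markers were present in every library, among them Lyz2 at 10512 to 13933 CPM, Csf1r at 1502 to 3174 CPM and Adgre1 at 1007 to 2438 CPM. Markers of other cells moved with the groups. The summed stromal markers (24 genes, 22 tested) lay at 18.3 to 309 CPM in WT at 0 h, 66.2 to 194 in WT at 4 h, 259 to 503 in labelled KO at 0 h and 135 to 1098 in labelled KO at 4 h, where number 4 was highest. Summed neutrophil markers (16 genes, 10 tested) were 128 to 157, 324 to 401, 200 to 252 and 395 to 487 CPM in the same order. Summed monocyte markers (12 genes, 11 tested) were 394 to 526, 586 to 690, 576 to 671 and 743 to 841 CPM, without overlap between genotypes at either time, and their median interaction was -0.62. Such sums follow the most abundant members. In labelled KO 3 of the 11 were called higher and 1 lower at 0 h (1.11% and 2.87% of all genes tested). At 4 h 1 was called higher and 2 lower (2.87% and 2.7%). Of 8 mast cell markers 5 were at 0 counts, as were 4 of 10 erythroid and megakaryocyte markers (Hba-a1 and Hbb-bs among them) and 1 of 11 T and NK markers. The other members of these lists were not all absent. Over the 14 libraries the sums were 0 to 0.259 CPM for mast cell, 121 to 261 for erythroid and megakaryocyte and 16.4 to 47 for T and NK markers. Sums of B cell markers were 115 to 209 CPM, of dendritic cell markers 57.9 to 342 and of osteoclast markers 302 to 582. The part of these cells in the interaction was not tested. In bulk RNA, fewer cells of a type and less RNA per cell cannot be told apart.

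The targeted gene checks the labels only in part. Nr4a1 (NM_010444) lies on chromosome 15 at 101253902 to 101274795 of mm10. It measured 13.4, 16.2, 15.2 and 14 CPM in WT and 12.4, 12.2 and 12.4 CPM in labelled KO at 0 h. At 4 h it was 7.25, 2.16, 1.74 and 1.3 CPM in WT and 0.531, 0.869 and 1.21 CPM in labelled KO. The labelled-KO libraries were the lower ones at 0 h and 4 h without overlap, yet at 0 h they kept most of the WT level. At 18 h the order was reversed without overlap, 1.04, 1.33, 0.965 and 1.08 CPM in WT and 2.96, 2.1 and 3.48 CPM in labelled KO. That difference was 1.35 (edgeR quasi-likelihood test, Benjamini-Hochberg adjusted p = 0.023). The interaction was -1.52 (log2, 95% interval -2.74 to -0.30) and did not pass the edgeR quasi-likelihood test (Benjamini-Hochberg adjusted p = 0.35). Nr4a1 had an interaction of -0.59 without WT number 1 at 4 h, the library at 7.25 CPM. The sources used here do not say which exons are deleted. Reads from the remaining exons would check nothing, and labelled KO is therefore used throughout. The related receptor genes Nr4a2 (0.31, adjusted p = 0.83) and Nr4a3 (-0.00, adjusted p = 1) did not pass the same edgeR test.

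LPS changed most genes in each genotype, and few genes passed the test for an unequal response. A gene that was not called may still have responded unequally. LPS changed 9786 of 12529 genes tested in WT (78.1%) and 9394 in labelled KO (75%), while the response differed between genotypes for 100 genes (0.798%) in the edgeR quasi-likelihood test, with calls made below 0.05 after Benjamini-Hochberg adjustment. Of these, 75 responded higher in labelled KO (0.599% of genes tested) and 25 lower (0.2%), and 1272 genes had an unadjusted p under 0.05. The sizes had a median of 1.01 on the log2 scale, and 50 genes reached 2-fold. Fitted sizes ran from 0.44 to 2.91 in the genes with at least 4 counts in every group. The other 4 genes had a group at 1 to 3 counts, where a fitted size depends on the prior count. Over all genes tested the median interaction was -0.02.

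Most of the 100 genes rose with LPS in both genotypes but by different amounts. Both responses were upward for 55 genes, of which 47 rose more in labelled KO and 8 rose less. For 21 genes both were downward, with a smaller fall in labelled KO for 9 and a larger one for 12. The 2 responses ran in opposite directions for 8 genes, and the remaining 16 passed the test in 1 genotype only, a split that is described and not tested beyond the interaction itself. The plot of both responses shows these groups.

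**Figure D1:**
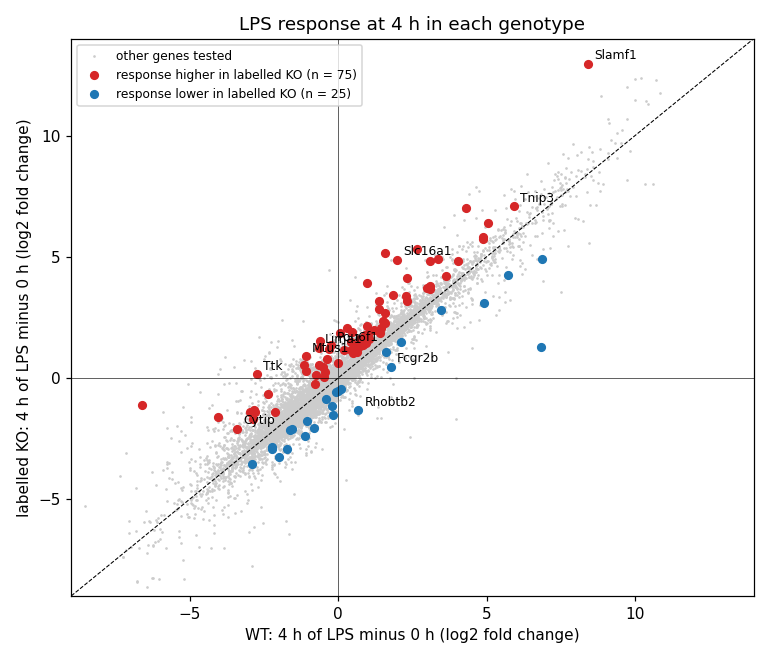
Log2 fold change from 0 h to 4 h of LPS in WT (horizontal) and labelled KO (vertical) for each gene tested, with the 75 genes of higher and the 25 of lower response in labelled KO in colour and equal responses on the dashed line. Nearly all genes lie close to the line; Lima1, Mtus1 and Pou6f1 lie in the quadrant of a WT fall and a KO rise, and 3 genes fall outside the axes.

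The count of calls depended on single libraries. It was 62 without labelled-KO number 2 at 0 h, 62 without labelled-KO number 4 at 4 h, and 22 without the library of highest stromal level in each of the 4 groups, while DESeq2 called 204. Fitted on the 14 libraries at 0 h and 4 h alone, 95 were called, of which 82 were among the 100. Of the 100 genes 46 were called whichever of the 14 libraries was left out, and none changed sign in any of these fits or in the 13 other settings. In every one of those fits 19 were called, among them Lima1, Slc16a1, Mtus1, Pou6f1, Rhobtb2, Ppfibp2, E2f8, Tnip3, Cytip, Fnbp1l, Dusp5 and Trim30d.

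Each of the 100 genes was then placed by whether the genotypes already differed at 0 h. A difference was said to arise at 4 h when it was called there and not at 0 h (46 genes, 29 with a higher response and 17 with a lower one). It was said to close by 4 h when it was called at 0 h and not at 4 h (34 genes, 30 and 4). It crossed when both were called with opposite signs (12 genes, 10 and 2), widened in 2 genes, narrowed in 3, and for 3 neither time was called by itself. These classes rest on thresholds at each time, so a gene in the first class may still have differed at 0 h by less than the test could call.

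The genes with a higher response mostly started lower. Of the 75, 66 had a labelled-KO level below WT at 0 h, and of the 25 with a lower response 21 started above WT. Both differences share the 0 h libraries, so a chance deviation at 0 h enters both with opposite sign and no test is given. At 0 h 499 genes differed between genotypes (3.98%; 139 or 1.11% higher and 360 or 2.87% lower in labelled KO), and 51 of them were among the 100. A further 149 genes differed at both times with the same sign and no called interaction, and these are described last as carried over. At 4 h 697 genes differed (5.56%), 63 of them among the 100.

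**Figure D2:**
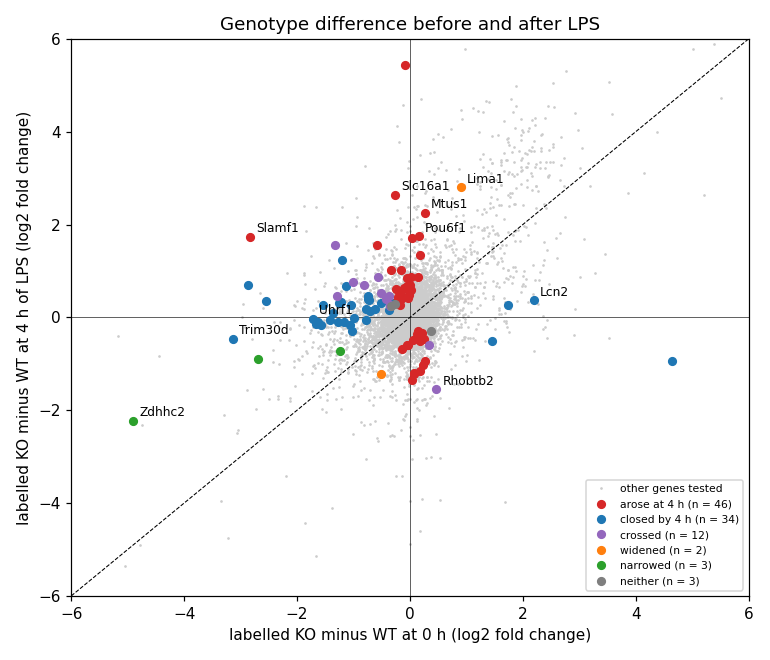
Log2 fold change of labelled KO against WT at 0 h (horizontal) and at 4 h (vertical) for each gene tested, with the 100 interaction genes coloured by class and equal differences on the dashed line. Differences that arose at 4 h mostly lie near 0 on the horizontal axis (Slamf1 does not), closed ones mostly near 0 on the vertical axis, and 14 genes fall outside the axes.

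Responses that differed in direction were led by a cytoskeletal gene. Lima1 (NM_023063, chromosome 15, 99778468 to 99875477 on mm10) encodes a protein that crosslinks actin filaments. It was at 123, 115, 113 and 113 CPM in WT at 0 h and 69.7, 80.4, 74.9 and 69.4 CPM at 4 h, and in labelled KO at 207, 210 and 233 CPM at 0 h and 526, 458 and 555 CPM at 4 h. All WT libraries were lower at 4 h than at 0 h and all labelled-KO libraries higher, with no overlap between genotypes at either time. The genotype difference widened from 0.90 to 2.80 on the log2 scale, an interaction of 1.91 ± 0.11 (SE, edgeR quasi-likelihood test, Benjamini-Hochberg adjusted p = 1e-09). At 18 h the difference was 0.54 (adjusted p = 2.8e-05 by the same edgeR test). Of 50 actin cytoskeleton genes Lima1 was the only one called, where 0.599% of all genes tested were called higher.

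Mtus1 (chromosome 8, 40990912 to 41133983), whose product binds microtubules, behaved in the same way without a called difference at 0 h. Its WT levels were 37.3, 33.5, 34.7 and 25.9 CPM at 0 h and 12.6, 14.9, 18.1 and 15.9 CPM at 4 h, against 42.1, 39.6 and 36.4, then 63.1, 76.1 and 78.7 CPM in labelled KO. Genotypes overlapped at 0 h and were far apart at 4 h. The interaction was 1.99 ± 0.19 (SE, edgeR quasi-likelihood test, Benjamini-Hochberg adjusted p = 2.5e-06). At 18 h the difference was 2.82, 52.5 against 7.46 CPM. Mtus1 overlaps the called gene B430010I23Rik, and since the treatment of strand was not given in the sources used here, reads of the pair cannot be told apart.

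Pou6f1, a POU-family transcription factor gene on chromosome 15, was the third of this kind. WT held 14.5, 14.9, 17 and 16.4 CPM at 0 h and 17.3, 11.2, 11.9 and 11.9 CPM at 4 h. There number 1 stood apart, above every WT library at 0 h. The WT fall was small, at -0.25 (edgeR quasi-likelihood test, Benjamini-Hochberg adjusted p = 0.042). Labelled KO held 18, 18.6 and 16.1 CPM and then 46, 43.9 and 43.2 CPM. The labelled-KO libraries at 4 h lay above all others, and the interaction was 1.59 ± 0.17 (SE, edgeR quasi-likelihood test, Benjamini-Hochberg adjusted p = 9.6e-06).

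Rhobtb2 (chromosome 14, 69784990 to 69824847), a gene of an atypical GTPase, ran the opposite way. It went from 6.02, 4.78, 5.87 and 5.67 CPM to 9.53, 10.3, 7.31 and 8.64 CPM in WT. In labelled KO it went from 7.84, 8.08 and 7.33 CPM to 3.29, 2.83 and 3.06 CPM. Labelled KO was above every WT library at 0 h and below every one at 4 h, so the difference crossed, from 0.47 to -1.55 (interaction -2.02 ± 0.20 SE, edgeR quasi-likelihood test, Benjamini-Hochberg adjusted p = 3.6e-06). It was -1.15 at 18 h. The interactions of Lima1, Mtus1, Pou6f1 and Rhobtb2 were called in every fit that left out a library and in all 13 other settings.

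Among differences that arose at 4 h, the largest well-counted one was in lactate transport. Slc16a1 (NM_009196, chromosome 3, 104638664 to 104658462), the monocarboxylate transporter MCT gene, stood at 10.7, 12.9, 11.4 and 11.7 CPM in WT and 10, 9.31 and 9.93 CPM in labelled KO at 0 h, a difference of -0.26 that was not called (edgeR quasi-likelihood test, Benjamini-Hochberg adjusted p = 0.53). At 4 h WT reached 61.9, 36.3, 42.3 and 43.4 CPM, and labelled KO reached 284, 268 and 309 CPM. Both genotypes rose and the 4 h levels did not overlap. The interaction was 2.89 ± 0.24 (SE, edgeR quasi-likelihood test, Benjamini-Hochberg adjusted p = 4e-07). By 18 h levels had come down to 4.03 ± 0.766 CPM for WT (SD, n = 4) and 6.71 ± 2.41 CPM for labelled KO (SD, n = 3), a difference of 0.79. Of 26 genes of glycolysis and lactate transport, 1 other was called, Pfkfb3, which makes the activator of phosphofructokinase. Its interaction was -0.66 (39 to 435 CPM in WT and 50.4 to 356 CPM in labelled KO). The Pfkfb3 call was lost in 8 of the 14 fits that left out a library. Over all genes tested 0.599% were called higher and 0.2% lower.

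Genes that responded less in labelled KO included an inhibitory receptor. Fcgr2b, the inhibitory Fc gamma receptor, rose in WT from 516, 438, 407 and 391 CPM to 1867, 1409, 1384 and 1331 CPM. In labelled KO it went from 497, 494 and 494 CPM to 578, 842 and 608 CPM. Levels overlapped at 0 h, and all labelled-KO libraries were below WT at 4 h (interaction -1.32 ± 0.25 SE, edgeR quasi-likelihood test, Benjamini-Hochberg adjusted p = 0.0091). At 18 h the difference was -0.59.

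Ppfibp2, a liprin gene that overlaps Cyb5r2, kept its level in WT (38.2, 40.2, 41 and 40.6 CPM, then 26.2, 37, 39.5 and 39.6) and not in labelled KO (38.1, 40.6 and 43.5 CPM, then 14.6, 13.9 and 13.5). The interaction was -1.38 ± 0.16 (SE, edgeR quasi-likelihood test, Benjamini-Hochberg adjusted p = 5.5e-05), and the LPS change in WT was -0.17 and did not pass (adjusted p = 0.13, same edgeR test). Irf2bpl, a transcriptional regulator gene, fell in both genotypes, to 3.31 CPM in WT and 1.44 CPM in labelled KO from 13.1 and 13.7 CPM. The same held for Prmt7, an arginine methyltransferase gene (interaction -1.20), and Galt, an enzyme of galactose metabolism (-1.25). The calls of Irf2bpl and Prmt7 were lost without labelled-KO number 4 at 4 h. Ier5, an immediate early gene, arose with a small difference, 109 against 152 CPM at 4 h (interaction 0.50), and was not called without labelled-KO number 3 or 4 at 0 h or number 4 at 4 h.

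**Figure D3:**
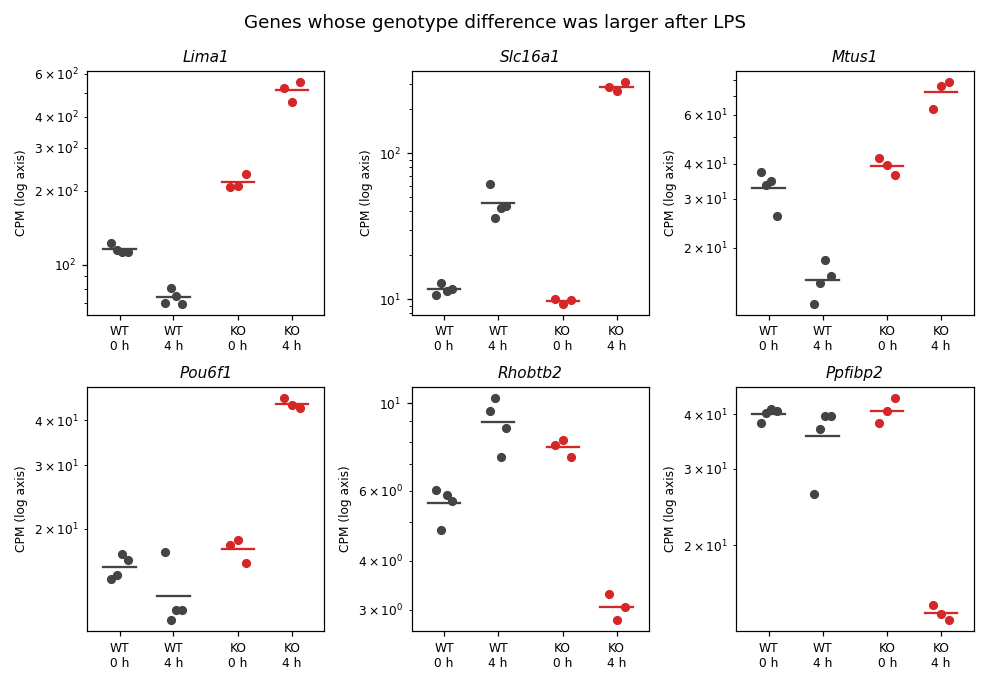
CPM on a log axis of 6 genes in each library at 0 h and 4 h, with points for libraries and lines for group means. Lima1, Slc16a1, Mtus1 and Pou6f1 are highest in labelled KO at 4 h, Rhobtb2 and Ppfibp2 are lowest there, and WT number 1 stands apart for Pou6f1 and Ppfibp2.

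The genotypes were also compared at 18 h, in libraries that no term of the interaction uses. Of the 46 genes that arose at 4 h, 25 differed between genotypes at 18 h with the same sign as at 4 h and 7 with the opposite sign, where 32.2% of all genes tested differed at 18 h. Of the 34 that closed by 4 h, 12 differed at 18 h in the direction of their 4 h value and 4 in the opposite one. Of the 12 that crossed, 6 kept the 4 h sign and 3 took the opposite one.

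Cell cycle genes were among those whose difference closed. At 0 h labelled-KO cells held less of 35 of 40 genes of mitosis and chromosome segregation and of 27 of 41 genes of DNA replication and S phase, against 2.87% of all genes tested lower there, with median differences of -1.31 and -0.76. At 4 h 8 and 10 of them were lower (2.7% of all genes tested) and 1 of each list was higher (2.87%), with medians of -0.49 and -0.33. The interaction was called for 7 of the 40 and 4 of the 41, all of them higher (0.599% of all genes tested), with medians of 0.80 and 0.24. Without labelled-KO number 4 at 4 h, the library of highest stromal level, 4 and 2 were called (medians 0.68 and 0.26), and without the library of highest stromal level in each group 1 and 1 (0.47 and 0.25).

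LPS lowered 31 of the 40 mitosis genes in WT, where 43% of all genes tested fell, and 23 in labelled KO, where 41.5% did, with median responses of -1.71 and -0.85. For the S phase list the counts were 29 and 22 of 41, and the medians -1.02 and -0.68. The summed levels, which follow the most abundant members, were 442 to 584 CPM in WT at 0 h, 454 to 510 in WT at 4 h, 228 to 263 in labelled KO at 0 h and 421 to 455 in labelled KO at 4 h for mitosis. The corresponding S phase sums were 526 to 617, 504 to 599, 375 to 391 and 545 to 569 CPM. In both lists the labelled-KO libraries at 0 h were below all others.

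E2f8, an atypical E2F that represses cell cycle genes, rose in both genotypes. It was at 7.21, 6.26, 5.6 and 5.72 CPM in WT at 0 h and 2.7, 2.71 and 2.22 CPM in labelled KO, and at 4 h at 47.1, 56.6, 51.6 and 55.8 CPM in WT and 66.2, 80.3 and 70.3 CPM in labelled KO. The order of the genotypes crossed without overlap at either time (interaction 1.76 ± 0.17 SE, edgeR quasi-likelihood test, Benjamini-Hochberg adjusted p = 2.5e-06). Kif4, a chromosome-bound kinesin gene, rose to meet WT: 5.14, 6.26, 4.25 and 4.12 CPM in WT and 1.64, 1.53 and 1.63 CPM in labelled KO at 0 h became 51.5, 53.2, 52.6 and 47.5 CPM and 44.4, 46.2 and 53.4 CPM. Its interaction was 1.54 ± 0.27 (SE, edgeR quasi-likelihood test, Benjamini-Hochberg adjusted p = 0.0041), and the genotypes overlapped at 4 h.

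Other cycle genes fell to low levels in both genotypes. Uhrf1, which maintains DNA methylation through replication, went in WT from 10.3, 14.1, 12.7 and 12 CPM to 1.84, 2.25, 2.28 and 2.91 CPM, and in labelled KO from 4.77, 3.35 and 3.11 CPM to 1.49, 2.39 and 2.87 CPM. The genotypes were apart at 0 h and overlapped at 4 h (interaction 1.69 ± 0.33 SE, edgeR quasi-likelihood test, Benjamini-Hochberg adjusted p = 0.011, not called without labelled-KO number 4 at 4 h). Bub1b, a spindle checkpoint kinase gene, went from 11.5 ± 1.56 CPM (SD, n = 4) to 1.44 ± 0.3 CPM in WT and from 4.92 ± 1.04 CPM (SD, n = 3) to 1.78 ± 0.628 CPM in labelled KO (interaction 1.55), and its call was lost without labelled-KO number 4 at 0 h or at 4 h. Sgo2a, which protects centromeric cohesion, went from 5.35 to 0.305 CPM in WT and from 2.3 to 0.674 CPM in labelled KO (2.45), and was not called without labelled-KO number 4 at 4 h. Its genotype difference was -1.21 at 0 h and 1.24 at 4 h, the latter not called (edgeR quasi-likelihood test, Benjamini-Hochberg adjusted p = 0.087). The 4 h levels of Sgo2a rest on 19 counts in WT and 27 in labelled KO, 20 of them in number 4.

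Ttk, the spindle checkpoint kinase MPS, crossed at low levels. WT fell from 2.26, 3.04, 2.45 and 1.83 CPM to 0.43, 0.375, 0.366 and 0.269 CPM, while labelled KO held 1.32, 0.936 and 0.63 CPM and then 0.85, 0.978 and 1.28 CPM. The interaction was 2.90 ± 0.49 (SE, edgeR quasi-likelihood test, Benjamini-Hochberg adjusted p = 0.0035). DESeq2 gave no adjusted p for Ttk, and its call was lost without the library of highest stromal level in each group. Ccne1, the cyclin E gene of S phase entry, rose from 2.31 to 5.89 CPM in WT and from 1.07 to 9.47 CPM in labelled KO (interaction 1.81), and Wdhd1, a replication fork protein gene, from 9.37 to 12.7 and from 6.35 to 23.4 CPM (1.44). Pcna, the sliding clamp, rose from 135 to 223 CPM and from 107 to 266 CPM (0.60), a call lost in 11 of the 14 fits that left out a library. Ccnd1, the cyclin D gene, was lower in labelled KO at both times by a narrowing difference (-1.24, then -0.73), and its interaction of 0.51 was lost in 13 of the 14.

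**Figure D4:**
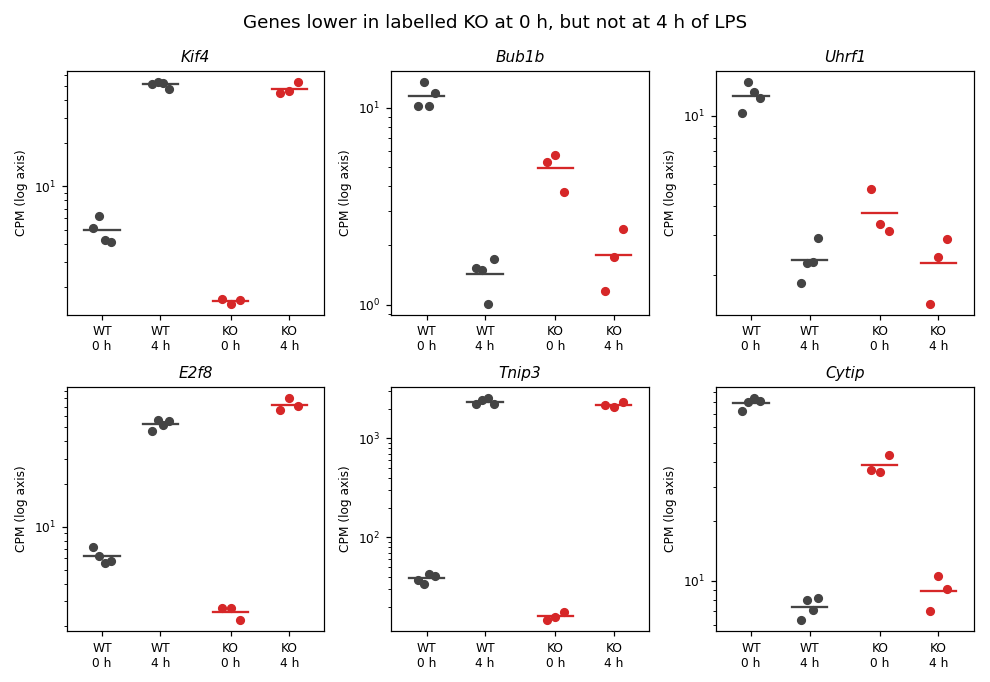
CPM on a log axis of 6 genes in each library at 0 h and 4 h, with points for libraries and lines for group means. All 3 labelled-KO libraries lie below all 4 WT libraries at 0 h for each gene, while at 4 h the genotypes overlap for all but E2f8, which is higher in labelled KO.

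Both called genes among the NF-kB subunits and feedback genes encode inhibitors, and both started lower in labelled KO. Tnip3, which binds the deubiquitinase A20 and restrains NF-kB, was at 37.3, 33.6, 42.9 and 40.9 CPM in WT and 14.7, 15.9 and 17.5 CPM in labelled KO at 0 h. At 4 h it reached 2231, 2414, 2550 and 2224 CPM in WT and 2166, 2079 and 2330 CPM in labelled KO. The gap at 0 h was gone at 4 h, where the libraries overlapped (interaction 1.16 ± 0.15 SE, edgeR quasi-likelihood test, Benjamini-Hochberg adjusted p = 0.00024). Nfkbie, the inhibitor IkB epsilon, went from 11.2, 10.7, 12.6 and 11.4 CPM to 349, 315, 340 and 349 CPM in WT, and from 8.95, 9.41 and 7.26 CPM to 440, 416 and 486 CPM in labelled KO. It crossed from below to above WT without overlap at either time (0.83 ± 0.13 SE, edgeR quasi-likelihood test, Benjamini-Hochberg adjusted p = 0.0021). These were the 2 called genes of 25 NF-kB subunits and feedback genes, whose median interaction was 0.14. Over all genes tested 0.599% were called higher. The list holds feedback genes by its definition, so these calls are not read as a result about inhibitors.

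Other genes named from the closed and crossed classes did not share a direction of response. Cytip, which controls cell adhesion through cytohesins, fell in WT from 72, 80.5, 84.1 and 81.5 CPM to 6.33, 7.97, 7.13 and 8.15 CPM, and in labelled KO from 36.4, 35.7 and 43.4 CPM to 7.01, 10.6 and 9.12 CPM. The levels overlapped at 4 h (interaction 1.31 ± 0.18 SE, edgeR quasi-likelihood test, Benjamini-Hochberg adjusted p = 0.00037), and at 18 h labelled KO was higher by 2.09. Fnbp1l, which couples membrane curvature to actin assembly, rose from 46.8 ± 2.52 CPM (SD, n = 4) to 1393 ± 103 CPM in WT and from 22.4 ± 1.12 CPM (SD, n = 3) to 1248 ± 47.4 CPM in labelled KO (0.91). Dusp5, a phosphatase of ERK kinases, crossed: 8.49 and 10.4 CPM at 0 h and 4 h in WT, 4.21 and 17.6 CPM in labelled KO (1.77 ± 0.24 SE), and 1.70 higher in labelled KO at 18 h. Prag1, a pseudokinase gene, rose from 3.73 to 18.5 CPM in WT and from 1.28 to 22.2 CPM in labelled KO (1.8), and was 2.09 higher in labelled KO at 18 h.

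Sequences upstream of some called genes are shown, with the motifs of NF-kB and interferon factors, which drive many LPS-induced genes. Not all of those shown were induced in WT. Bub1b fell there, and the change of Trim5 was 0.06 and not called (edgeR quasi-likelihood test, Benjamini-Hochberg adjusted p = 0.79). Promoters, 250 bases before to 50 after the start in the RefSeq table of GRCm38.p6, were at hand for 79 of the 100 genes and 9984 of the 12529 tested, and each motif was sought on both strands. A kappa B match was in 6.33% of the promoters of the 100 genes and in 6.34% of all. The core of the interferon-stimulated response element (ISRE), GAAA followed by any 2 bases and GAAA again, was in 10.1% against 4.15%, in 8 of 56 promoters of genes with a higher response (14.3%) and 0 of 23 with a lower one. The NBRE, AAAGGTCA, to which Nur77 binds as a monomer, was in 1.27% against 1.15%. An E2F site (TTTGGCGC, TTTCGCGC or TTTCCCGC) was in 1.27% against 4.15%, and in 19.1% of the 68 promoters of the mitosis and S phase lists. A match describes the letters and is not a bound site, and some ISRE matches, such as that of E2f8, lie in simple repeats. The 250 bases before the start are given on the strand of the gene, with the match in capitals: kappa B for Tnip3, chr6:65590148-65590397 (forward strand), and Nfkbie, chr17:45555450-45555699 (forward strand), and the ISRE core or its reverse complement for Bub1b, chr2:118597961-118598210 (forward strand), Trim5, chr7:104288107-104288356 (reverse strand), and Trim30d, chr7:104507850-104508099 (reverse strand).
Tnip3: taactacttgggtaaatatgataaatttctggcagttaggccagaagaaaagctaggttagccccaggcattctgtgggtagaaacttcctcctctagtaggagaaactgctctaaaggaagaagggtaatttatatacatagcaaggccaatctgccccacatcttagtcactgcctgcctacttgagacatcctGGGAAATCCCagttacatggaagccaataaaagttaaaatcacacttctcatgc
Nfkbie: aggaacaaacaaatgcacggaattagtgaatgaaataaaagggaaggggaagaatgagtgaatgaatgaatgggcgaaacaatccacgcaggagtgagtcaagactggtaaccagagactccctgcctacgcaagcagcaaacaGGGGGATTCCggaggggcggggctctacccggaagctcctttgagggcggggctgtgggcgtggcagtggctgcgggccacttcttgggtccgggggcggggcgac
Bub1b: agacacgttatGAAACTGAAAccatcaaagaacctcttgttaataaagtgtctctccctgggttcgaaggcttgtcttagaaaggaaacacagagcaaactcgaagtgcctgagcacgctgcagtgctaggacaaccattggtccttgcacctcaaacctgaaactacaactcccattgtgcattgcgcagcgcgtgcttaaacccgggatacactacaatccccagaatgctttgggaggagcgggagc
Trim5: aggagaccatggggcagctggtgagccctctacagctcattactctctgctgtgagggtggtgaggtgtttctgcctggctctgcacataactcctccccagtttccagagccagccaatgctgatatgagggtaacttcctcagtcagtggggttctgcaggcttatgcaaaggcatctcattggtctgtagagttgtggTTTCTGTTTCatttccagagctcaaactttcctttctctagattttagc
Trim30d: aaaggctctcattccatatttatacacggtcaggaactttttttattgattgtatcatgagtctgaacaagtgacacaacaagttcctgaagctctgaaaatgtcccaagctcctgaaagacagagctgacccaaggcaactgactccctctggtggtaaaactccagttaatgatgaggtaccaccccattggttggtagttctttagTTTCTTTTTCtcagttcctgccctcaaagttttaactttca

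Calls were rare among inflammatory mediators, as they were among all genes tested (0.798%). The counts in these lists are small and are not read as a result about mediators. Among cytokines and mediators driven by NF-kB, 39 of 43 rose with LPS in each genotype, where 35.1% (WT) and 33.5% (labelled KO) of all genes tested rose. In the interaction 0 of the 43 were called higher and 1, Lcn2, lower, against 0.599% and 0.2% of all genes. A positive value was found for 28 of the 43 (median 0.36), and for 5949 of all 12529 genes tested (median -0.02). Of 60 interferon-stimulated genes all 60 rose in both genotypes and none was called (median -0.07). Of 20 chemokines 1 was called lower (0.2% of all genes). Of 34 immediate early genes 2 were called higher (0.599% of all genes), Ier5 and Dusp5. Tnf, the gene of tumour necrosis factor, came nearest: 6.57, 7.2, 10.6 and 11.4 CPM in WT and 4.02, 6.21 and 3.74 CPM in labelled KO at 0 h, then 2063, 2505, 2701 and 2927 CPM and 2982, 2961 and 2869 CPM. Its interaction was 1.14 (95% interval 0.56 to 1.71) and did not pass the edgeR quasi-likelihood test (Benjamini-Hochberg adjusted p = 0.057), though it was called in 4 of the 14 fits that left out a library and in 5 of the 13 other settings.

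Other mediators had wide intervals. Acod1, which makes itaconate, had an interaction of 1.48 (95% interval 0.20 to 2.76), Nos2, the inducible nitric oxide synthase, of 1.59 (-0.48 to 3.67), Ptgs2, the inducible cyclooxygenase, of 0.96 (-0.20 to 2.13) and Il12b of 1.07 (-1.39 to 3.52). Il1b had an interaction of 0.38 (95% interval -0.25 to 1.01), Cxcl10 of 0.11 (-0.63 to 0.84) and Il10 of -0.76 (-1.72 to 0.19). Il6, before LPS at 0.281 ± 0.261 CPM for WT (SD, n = 4) and 0.135 ± 0.159 CPM for labelled KO (SD, n = 3), had an interval of -1.03 to 2.89, so its response could not be compared closely at this depth. At 4 h it stood at 470 ± 28.4 (WT) and 447 ± 102 CPM (labelled KO). None of these genes was called, Acod1 included (edgeR quasi-likelihood test, Benjamini-Hochberg adjusted p = 0.4), and a missed threshold does not show equal responses.

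The 4 closed differences of lower response started higher in labelled KO, and 3 of them are named by the rule for named genes. Lcn2, an iron-binding lipocalin also listed among neutrophil genes, went from 0.798, 0.977, 2.06 and 2.3 CPM to 48.9, 37.7, 39.8 and 46.7 CPM in WT, and from 4.98, 8.38 and 6.48 CPM to 63.4, 45 and 60.2 CPM in labelled KO. Labelled KO was higher at 0 h and overlapped WT at 4 h (interaction -1.82 ± 0.37 SE, edgeR quasi-likelihood test, Benjamini-Hochberg adjusted p = 0.015), and the call was lost without labelled-KO number 3 at 0 h. Beside it, 8 of 10 neutrophil markers were higher in labelled KO at 0 h (1.11% of all genes tested) and 1 at 4 h (2.87%), with a median interaction of -0.94 and 1 gene called, Lcn2. Ccl8, a monocyte chemokine, went from 1.79 to 94.6 CPM in WT and from 6.02 to 114 CPM in labelled KO (-1.46), and was not called without labelled-KO number 2 or WT number 2 at 0 h. Rnd1, a small GTPase gene, went from 0.259 to 31 CPM and from 0.71 to 21.7 CPM (-1.95). The fourth, Fcrlb, an Fc receptor-like gene named here after its values were seen, had 1 count in all WT libraries at 0 h.

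A ratio of ratios can differ in sign from a difference in CPM, and did so for 8 of the 100 genes. Tnip3 rose by a larger factor in labelled KO but by 140 CPM less (difference of differences -140 CPM), and the same held for Fnbp1l (-120 CPM), Trim30d (-134 CPM), Zdhhc2 (-15.3 CPM) and Slamf7 (-54.7 CPM). Lcn2 (7.85 CPM), Ccl8 (15.4 CPM) and Mindy1 (14.3 CPM), a deubiquitinase gene, had a lower fold response and a more positive CPM change. Slamf7, a receptor of the SLAM family, was named after its values were seen.

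Low starting levels limited a few of the highest fold changes. Zdhhc2, a palmitoyltransferase gene, had 8 counts over the labelled-KO libraries at 0 h. It was at 3.22, 4.92, 4.42 and 2.62 CPM in WT and 0.106, 0.0985 and 0.148 CPM in labelled KO at 0 h, then at 27.7, 26.6, 24.7 and 17.2 CPM and 4.04, 5.98 and 5.29 CPM. Labelled KO stayed below WT at both times by a narrowing difference, -4.90 and then -2.23 on the log2 scale. The interaction of 2.67 ± 0.49 (SE, edgeR quasi-likelihood test, Benjamini-Hochberg adjusted p = 0.0071) was not called by limma-voom. Slamf1, a receptor of lymphoid and myeloid cells, had 2 counts in labelled KO at 0 h and 10608 at 4 h, a ratio of 10232 (95% counting interval 2832 to 84503). At 4 h it was at 84.9, 89.2, 95.1 and 88.7 CPM in WT and 310, 214 and 365 CPM in labelled KO without overlap. At 18 h it was still 2.47 higher. Its interaction was lost without labelled-KO number 2 or 4 or WT number 3 at 0 h.

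Some of the genes have near-identical copies and are uncertain, since the treatment of shared reads was not given in the sources used here. Trim30d, of the interferon-induced tripartite motif family, was at 42.5, 21.6, 28.2 and 23.8 CPM in WT and 5.35, 1.23 and 3.37 CPM in labelled KO at 0 h, and at 725, 522, 559 and 526 CPM and 380, 412 and 478 CPM at 4 h. Labelled KO was lower at both times in every library, yet the 4 h difference of -0.46 did not pass (edgeR quasi-likelihood test, Benjamini-Hochberg adjusted p = 0.25), and the interaction was 2.68 ± 0.36 (SE). Trim5, a retroviral restriction factor gene next to it, was at 5.17 CPM (0 h) and 5.35 CPM (4 h) in WT and rose from 0.8 to 2.88 CPM in labelled KO (1.8), a call lost without labelled-KO number 4 at 0 h or at 4 h.

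Called genes lay near each other on several chromosomes. Of the 100, 27 fell into 10 runs of neighbours at most 1000000 bases apart. No such share was computed over all genes tested, so the count is descriptive only. Some neighbours overlap each other (Mtus1 with B430010I23Rik, Hmox2 with Cdip1), and their reads cannot be told apart. The longest run, on chromosome 1 from 170906715 to 172122332 on mm10, held Fcrlb, Fcgr2b, Slamf7, Slamf1 and Copa among 37 genes tested. Zdhhc2, B430010I23Rik, Mtus1 and Pcm1 lay together on chromosome 8 from 40423485 to 41334088, and Trim5, Gm15133 and Trim30d on chromosome 7 from 104263386 to 104507853. On chromosome 15 Pou6f1 and Lima1 had distances of -0.68 and -1.44 Mb from Nr4a1 itself, and Rnd1 of -2.59 Mb. The run of Lima1 and Pou6f1 held 2 called genes among 12 tested, and Pphln1 on the same chromosome lay at -7.82 Mb. Chromosome 15 as a whole held 4 of the 100 genes, 0.832% of its genes tested, against 0.798% over the genome. On chromosome 14 Rhobtb2 and Ppp3cc formed a run of 2 called among 8 tested. Beside Rhobtb2 lay the carried-over gene Tnfrsf10b, which differed by 2.98 at 0 h and 4.04 at 4 h. Each run begins and ends with a called gene. Genes of these runs that are described nowhere else were named after their values were seen.

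**Figure D5:**
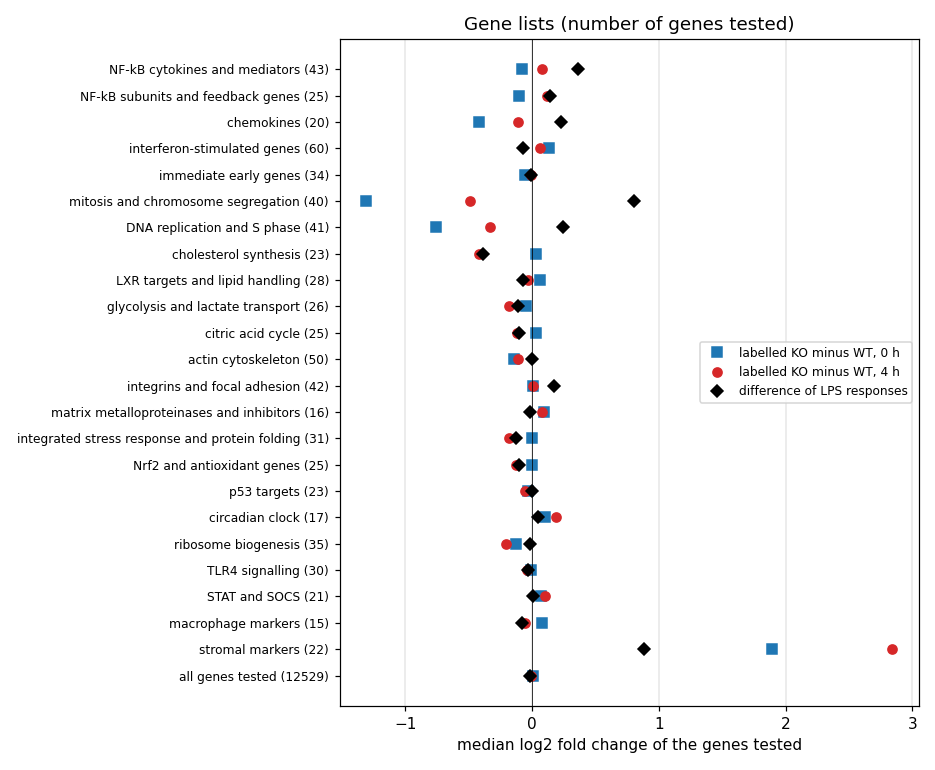
Median log2 fold change of each gene list with at least 15 genes tested (1 list left out), for labelled KO minus WT at 0 h (squares), at 4 h (circles) and for the difference of LPS responses (diamonds). The mitosis list has medians of -1.31, -0.49 and 0.80 and the stromal list 1.89, 2.84 and 0.88, while the median of all genes tested is close to 0 in each.

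The carried-over genes show what the interaction leaves out. Cd5l, a secreted scavenger protein of macrophages, was at 362, 418, 360 and 412 CPM in WT and 13.2, 10.2 and 11.8 CPM in labelled KO at 0 h, and at 370, 291, 337 and 376 CPM and 10.4, 6.19 and 8.61 CPM at 4 h. The genotypes were far apart at both times by nearly the same amount, -5.05 and -5.35, and the interaction was -0.30 (95% interval -0.75 to 0.15). Ddx58, the RNA sensor RIG-I, differed by -1.73 and -1.58, and Sorbs3, an adhesion adaptor gene, by 1.28 and 2.23. Sorbs3 had an interaction of 0.95 (95% interval 0.35 to 1.55) that was not called (edgeR quasi-likelihood test, Benjamini-Hochberg adjusted p = 0.16), so this class holds genes whose responses may be unequal. Over the 149 genes the median width of the 95% interval to each side was 0.46 on the log2 scale, and the largest uncalled interaction was 4.84 in size. At 18 h 94 of the 149 differed with the 4 h sign and 11 with the opposite one, where 32.2% of all genes tested differed.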

How the data were processed

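RNA was sequenced in 21 libraries; the 14 at 0 h and 4 h form the interaction. The submitters' processing notes list HISAT2 2.1.0, CASAVA 1.8.2 and mm10. How reads were counted, and whether strand or shared reads were considered, was not given in the sources used here. The authors deposited estimated counts for RefSeq transcripts, unscaled and in multiples of 0.5. Whole counts had been planned for, so values were rounded (0.5 upward). Of 42361 transcripts 93 had no gene name (0.232 to 2.23% of counts per library) and were left out. The transcript of highest mean stood for each of 25067 genes. Gene positions are those of the RefSeq table of GRCm38.p6 (mm10), which matched 42203 transcripts.

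edgeR 4.0.16's quasi-likelihood test (R 4.3.3, 6 group means over all 21 libraries, TMM factors, default expression filter) tested 12529 genes; those with a Benjamini-Hochberg adjusted p below 0.05 were called. SE is the log2 fold change over the square root of F. The fit was tested on simulated data. Intervals of count ratios reflect counting error alone. Plots used matplotlib 3.10.9.

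Named genes were a fixed set, the 12 highest and 12 lowest called interactions with at least 5 CPM in a group, up to 4 per class, up to 3 per list and sign, and up to 6 carried-over genes, without clone-named genes. Genes and lists were chosen with earlier results of these data known. Alternatives were DESeq2 1.42.0, limma 3.58.1 (voom), other scaling factors, filters and libraries, summed transcripts, a stromal covariate, replicate blocks, and leaving out libraries.

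Same-numbered libraries at 0 h and 4 h had correlated deviations from group means in WT (0.23, 0.32, 0.24 and 0.24) and not throughout in labelled KO (0.14, 0.02 and 0.2). What a number marks is not stated, so numbers were not taken as pairs. Results on 1 gene list and 1 marker gene are not reported here.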

Additional observations from a re-analysis of the deposited data

Results flagged for a closer look

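The LPS response differed between genotypes for 100 genes by the test of the difference itself. Among the genes named, Lima1 (1.91), Mtus1 (1.99) and Pou6f1 (1.59) fell in WT and rose in labelled KO, and Rhobtb2 (-2.02) did the opposite, each value being the interaction on the log2 scale. The WT fall of Pou6f1 was small (-0.25), and WT number 1 did not share it.

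In the groups of 4 WT libraries, a single library stood apart from the other 3 in 11 of 134 groups checked. The cut used gives about 1 in 20 for independent, normally spread values. The groups are named genes in the same WT libraries and are not independent, so 11 of 134 cannot be read as an excess. At 4 h WT number 1 was the highest for Nr4a1 (7.25 CPM), Ddx58 (1584 CPM), Egr3 (2.7 CPM), Fcgr2b (1867 CPM) and Pou6f1 (17.3 CPM) and the lowest for Btg1 (228 CPM). At 4 h WT number 2 was the lowest for Nos2 (664 CPM). At 0 h WT number 1 was the highest for Ddx58 (142 CPM), WT number 3 the highest for Slamf1 (0.438 CPM), and WT number 2 the lowest for Sorbs3 (12.4 CPM) and Rnd1 (0.109 CPM). Without WT number 1 at 4 h 128 genes were called in the interaction, 90 of them among the 100.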

How the results depend on the processing

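None of the 100 genes changed the sign of its interaction in any alternative. Of the genes named without a call, Nr4a3, Cxcl10, Socs3, Ddx58, Ifi202b and Trim12a did, with values near 0 or wide intervals. Of the 100 genes, 100 were called with median-of-ratios factors (107 in all), 96 with upper-quartile factors (98), 86 without an expression filter (88), 82 with the 14 libraries alone (95), 90 with summed transcripts (99), 94 with the stromal covariate (106), 82 by limma-voom (86) and 96 by DESeq2 (204). Leaving out 1 library gave 62 to 128 genes called, 43 to 92 higher and 15 to 36 lower. It gave 314 to 616 at 0 h, 275 to 764 at 4 h and 3943 to 4355 at 18 h between genotypes, and 9563 to 9866 (WT) and 9027 to 9485 (labelled KO) for the LPS response. By class it gave 25 to 60 that arose, 23 to 48 closed, 4 to 12 crossed, 2 to 5 widened or narrowed, 0 to 9 called at neither time and 80 to 175 carried over. Without the library of highest stromal level in each group, which leaves 3 against 2 libraries, 22 were called (17 higher, 5 lower): 8 arose, 13 closed, 0 crossed, 1 widened or narrowed and 0 stood alone, with 57 carried over, 297 at 0 h and 174 at 4 h. DESeq2 gave 162 higher and 42 lower, of which 111 arose, 55 closed, 10 widened or narrowed and 12 stood alone. With the stromal covariate 394 genes differed at 4 h and 2437 at 18 h, 2 crossed and 14 stood alone. Widened or narrowed genes numbered 3 with upper-quartile factors and 2 by limma-voom. A replicate block shared by the genotypes gave 114 called genes (93 of the 100), of which 8 widened or narrowed and 7 stood alone. With a replicate block within genotype 121 were called (90 of the 100). The causes were not tested. Depth limits genes that start near 0 counts, and 3 labelled-KO libraries limit small interactions.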
